A study of Mus musculus with 16 samples.

Results

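Runx2, Sp7 and Dlx5, transcription factors that drive cells to become osteoblasts, and Pth1r, the receptor through which parathyroid hormone acts on those cells, were examined in mouse bone after ovariectomy or a sham operation. These 4 genes were chosen by name, and all 4 were among the 25239 genes of the authors' deposited table of RNA comparisons and among the 15396 of them with an adjusted p. Their N6-methyladenosine (m6A, a methyl mark that the cell places on adenosines within its RNA) was read from the authors' deposited table of 13083 peaks, which held 2 peaks in these genes, 1 in Runx2 and 1 in Pth1r. Ovariectomy removes the ovaries and is used as a model of bone loss after loss of estrogen. All animals were wild type, the tissue was labelled bone, and neither the animals' age nor the time after the operation was given in the sources used here. There were 8 input libraries (RNA before pull-down), 4 titled NC and labelled sham and 4 titled OVX, and 8 libraries of RNA pulled down with an antibody to m6A (IP), 4 titled NC and 4 titled OVX. The treatment field of the 4 IP libraries titled NC reads ovariectomy, and the titles were followed. The labels do not say whether each library came from a separate animal, so the authors' p-values may measure technical spread.

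Runx2 starts the osteoblast programme and binds DNA together with its partner subunit Cbfb. Sp7, also called osterix, acts downstream of Runx2 in the same lineage, and Dlx5 is a homeobox factor induced by bone morphogenetic proteins that can induce them. Pth1r is a G protein-coupled receptor for parathyroid hormone and the related peptide Pthlh. In osteoblasts and osteocytes it signals mainly through the stimulatory G protein Gnas, cyclic AMP and protein kinase A, and it changes the output of genes such as Tnfsf11, Sost and Mmp13. In growth cartilage it holds chondrocytes back from maturing.

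The authors' deposited tables hold 1 value per gene or peak for the comparison and none for a single library. The arm in the numerator of the fold changes is stated in neither of them, so signs stand as deposited and are read neither as higher nor as lower after ovariectomy. Mean normalized counts in the authors' deposited table summed to 43717045, and 6190 genes had a mean of 0. Bone markers were present, with a mean of 99868 counts for Col1a1 and 8758 for Dmp1 in the authors' deposited table. So were those of muscle, with a mean of 127953 counts for Myh1 in the authors' deposited table, and of cartilage, with 20609 for Col2a1 in the authors' deposited table. In such bulk tissue, fewer cells of a type and less RNA per cell cannot be told apart.

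None of the 4 genes was called in the RNA comparison of the authors' deposited table, where a call is an adjusted p under 0.05. Across all tested genes, 12.2% were called in the authors' deposited table, 6.07% with a positive and 6.11% with a negative sign. At an unadjusted p under 0.05, 25.7% of tested genes would pass and still none of the 4. Runx2, Dlx5 and Pth1r had negative and Sp7 a positive fold change in the authors' deposited table, each smaller than its standard error (SE). The median of all tested genes was -0.02 on the log2 scale in the authors' deposited table, and 53.3% of them were negative.

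Runx2, the factor that starts the osteoblast programme, had a mean of 1206 normalized counts in the authors' deposited table. With the fold change, that mean corresponds to 1190 counts in the arm of the numerator and 1222 in the other. Its log2 fold change was -0.04 ± 0.27 (SE) in the authors' deposited table, with an adjusted p of 0.951. The 95% interval computed from that SE runs from -0.56 to 0.48 on the log2 scale, which is a ratio between 0.678 and 1.40. For Runx2, doubling or halving thus lay outside the interval, while ratios down to 0.678 and up to 1.40 lay within it.

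Sp7 had a mean of 482 counts in the authors' deposited table, or 492 counts in the numerator arm and 472 in the other. Its log2 fold change was 0.06 ± 0.60 (SE) in the authors' deposited table, with an adjusted p of 0.966. The 95% interval of Sp7 runs from -1.12 to 1.23 on the log2 scale, a ratio between 0.461 and 2.35. For Sp7, therefore, neither a doubling nor a halving lay outside the interval.

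Dlx5 had a mean of 210.3 counts in the authors' deposited table, or 192 counts in the numerator arm and 228 in the other. Its log2 fold change of -0.25 ± 0.28 (SE) in the authors' deposited table was the largest of the 4 in size, with an adjusted p of 0.614. The interval of Dlx5 runs from -0.79 to 0.30 on the log2 scale, a ratio between 0.577 and 1.23.

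Pth1r had a mean of 1772 counts in the authors' deposited table, or 1686 counts in the numerator arm and 1857 in the other. Its log2 fold change was -0.14 ± 0.32 (SE) in the authors' deposited table, with an adjusted p of 0.826. The interval of Pth1r runs from -0.76 to 0.48 on the log2 scale, a ratio between 0.590 and 1.40. Mean counts are not divided by transcript length, so they do not rank the 4 genes by level.

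**Figure D1:**
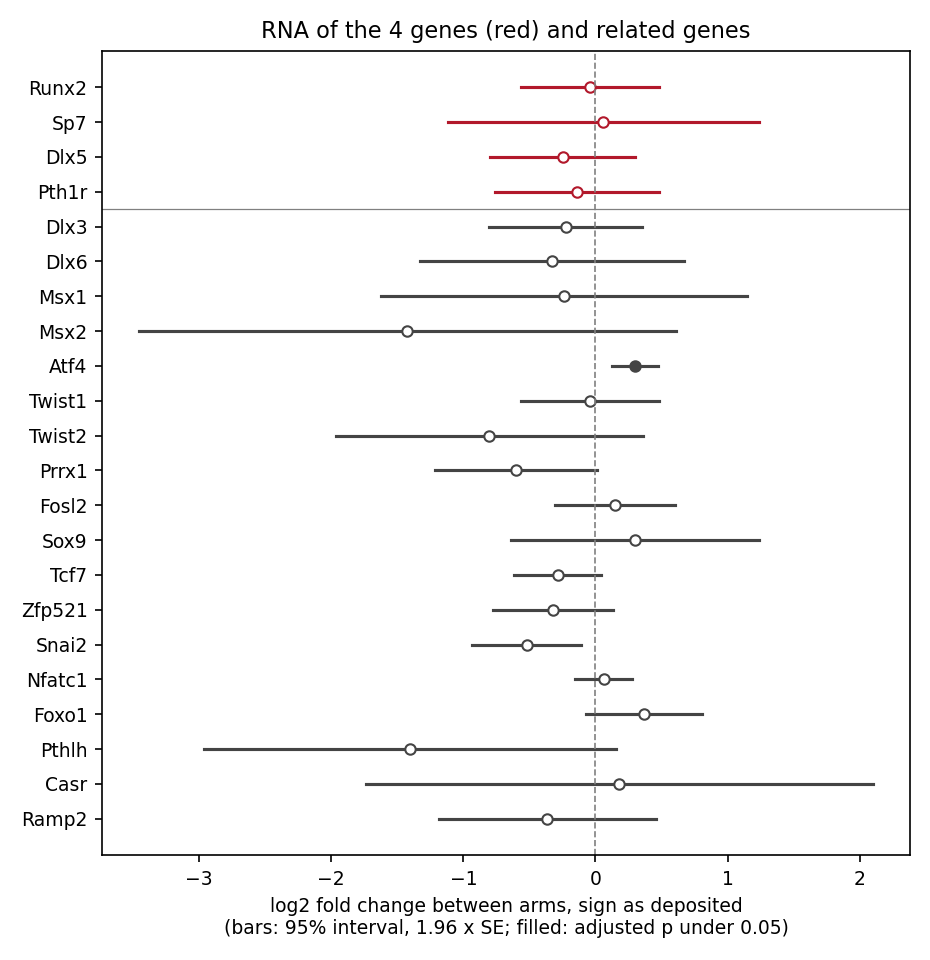
Log2 fold change between arms (horizontal axis, sign as deposited) with 95% intervals for Runx2, Sp7, Dlx5 and Pth1r in red and for related transcription factors and genes of parathyroid hormone reception in grey. All 4 red intervals cross 0, that of Sp7 is the widest of them (from -1.12 to 1.23), and the filled point of Atf4 is the single gene shown with an adjusted p under 0.05.

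Sp7 was measured with an unusually wide error for its count. Among the 500 tested genes nearest to it in mean count (441 to 522 counts), 498 had a smaller SE than Sp7, and their median SE was 0.17 in the authors' deposited table. For Pth1r, 476 of the nearest 500 had a smaller SE, and for Runx2, 449 did. Dlx5 lay closer to its neighbours in count, with 342 of 500 below it. This ranking was chosen after the values were seen.

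The SE of a negative binomial fit with 4 libraries an arm fixes the variation between libraries that the model assigned to a gene beyond counting error. Read in this way, the coefficient of variation between libraries of an arm was 58.6% for Sp7, 31.0% for Pth1r, 26.4% for Dlx5 and 26.0% for Runx2. The median over tested genes was 16.1% (quartiles 10.7% and 28.0%). These are approximate values, computed with equal library sizes from SEs that can include smoothing across genes. Sp7 lay above 93.9% of tested genes on this scale, while the other 3 genes lay above 72.0% to 78.3%.

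Some lists of marker genes had medians as high as the value of Sp7. The same coefficient had a median of 73.2% over 14 tested cartilage genes and of 59.3% over 17 skeletal muscle genes. It was 29.9% over 18 osteoblast matrix genes, 27.3% over 12 osteocyte genes and 20.1% over 12 marrow stroma genes. Over 19 tested osteoblast transcription genes, Runx2, Sp7 and Dlx5 included, the median was 26.4%, with values from 8.7% to 96.7%. Over 4 tested genes of parathyroid hormone reception, Pth1r included, it was 58.3%. Runx2, Dlx5 and Pth1r thus stood near the medians of the osteoblast and osteocyte lists. Sp7 stood near those of muscle and of parathyroid hormone reception, and within the range of the osteoblast transcription list. The part of cartilage, muscle or single libraries in the spread of Sp7 was not tested.

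The width of each error sets what could have been called. The smallest absolute Wald statistic of a called gene was 2.74 in the authors' deposited table. At that value, Runx2 would have needed a change of 1.66-fold in either direction, Dlx5 of 1.70-fold and Pth1r of 1.83-fold. Sp7 would have needed 3.13-fold.

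**Figure D2:**
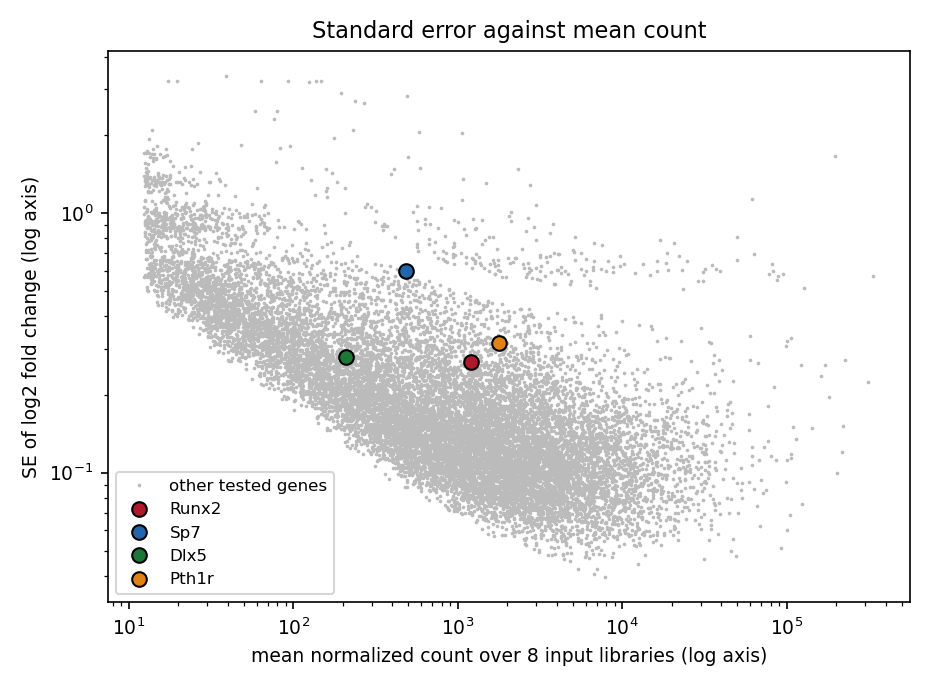
SE of the log2 fold change against the mean normalized count over the 8 input libraries, both on log axes, for all 15396 tested genes (grey) and the 4 genes (coloured). Sp7, at 482 counts, sits at the upper edge of the cloud with an SE of 0.60, and Dlx5 lies nearest to the middle of it.

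Among transcription factors of the osteoblast lineage, a list of 20 genes that includes Runx2, Sp7 and Dlx5, 19 were tested. Of these, 1 (5.26%) was called, with a positive sign, beside 12.2% of all tested genes called and 6.07% called positive. Atf4, a leucine zipper factor that serves amino acid supply and osteocalcin transcription in osteoblasts, had 0.30 ± 0.09 on the log2 scale in the authors' deposited table (adjusted p = 0.012). Atf4 is also expressed in most other cells. The other 18 were not called, and the list had 7 positive and 12 negative values with a median of -0.22, beside -0.02 over all tested genes. Dlx6, the homeobox gene beside Dlx5 in the genome, had -0.33 ± 0.51 in the authors' deposited table, at a mean of 46.6 counts. Dlx3 had -0.22 ± 0.30 and Msx2, a homeobox factor that can oppose Dlx5, had -1.42 ± 1.04 in the authors' deposited table. Msx2 had a mean of 13.0 counts. Twist1, which holds Runx2 back, had -0.04 ± 0.27 in the authors' deposited table. Fosl1, at a mean of 0.303 counts, was the 1 gene of the list with no adjusted p. Dlx6, Dlx3, Msx2, Twist1 and Fosl1 were named after their values were seen.

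Among 20 partners and regulators of Runx2, all tested, 2 were called with a positive and 2 with a negative sign, beside 6.07% and 6.11% of all tested genes. Cbfb, the subunit that Runx2 needs to bind DNA well, had -0.06 ± 0.09 in the authors' deposited table and was not called (adjusted p = 0.732). Wwtr1, the Hippo pathway coactivator also called TAZ, which binds Runx2, had -0.98 ± 0.35 in the authors' deposited table (adjusted p = 0.042). Wwp1, a ubiquitin ligase that acts on Runx2, had -0.73 ± 0.20 in the authors' deposited table (adjusted p = 0.0047). Ets1, a transcription factor also active in lymphocytes, had 0.30 ± 0.06 in the authors' deposited table (adjusted p = 1.8e-04). Hdac5, a class II histone deacetylase that restrains Runx2, had 0.29 ± 0.11 in the authors' deposited table (adjusted p = 0.045). With no filter on low counts, Wwtr1 and Hdac5 had adjusted p-values of 0.052 and 0.054 and were not called, which leaves 2 calls in this list. The median of the Runx2 partners was -0.09. Cbfb was named after its value was seen.

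Among ligands, receptors and modulators of parathyroid hormone, none of the 4 tested genes was called, and 0 had an unadjusted p under 0.05. Over all tested genes these shares were 12.2% and 25.7%. Pthlh, the local ligand of Pth1r, had -1.40 ± 0.80 in the authors' deposited table (adjusted p = 0.255), at a mean of 41.6 counts. Ramp2, a membrane protein that associates with Pth1r, had -0.37 ± 0.42, and Casr, the calcium-sensing receptor, had 0.18 ± 0.98 in the authors' deposited table. The other 3, Pth, Pth2 and Pth2r, were listed at a mean of 0. The hormone Pth is made in the parathyroid glands. Casr was named after its value was seen.

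The signal chain below Pth1r had 4 called genes of 29 (13.8%), 2 with each sign, at a median of 0.01, beside 12.2% called and a median of -0.02 over all tested genes. The share called in this list was thus near the background. Gnas, the stimulatory G protein, had 0.05 ± 0.15 in the authors' deposited table, and Prkaca, a catalytic subunit of protein kinase A, had -0.07 ± 0.11 in the authors' deposited table. Neither was called, and both were named after their values were seen. Prkar2a, a regulatory subunit of protein kinase A, had -0.92 ± 0.19 in the authors' deposited table (adjusted p = 9.6e-05). Plcb1, the phospholipase of the Gq branch, had -0.39 ± 0.11 in the authors' deposited table (adjusted p = 0.0062). Adcy7, an adenylyl cyclase prominent in blood cells, had 0.25 ± 0.05 in the authors' deposited table (adjusted p = 2.0e-04). Arrb1, an arrestin, had 0.22 ± 0.08 in the authors' deposited table (adjusted p = 0.040). These signalling genes are used by many receptors and cell types besides Pth1r and osteoblasts.

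Of 18 genes known to respond to parathyroid hormone, 15 were tested and 1 (6.67%) was called, with a negative sign. Over all tested genes 12.2% were called and 6.11% were called negative. The share called negative is near its background, and no gene of the list was called positive. Mmp13, the collagenase of osteoblasts and hypertrophic cartilage and also a target of Runx2, had -0.83 ± 0.22 in the authors' deposited table (adjusted p = 0.0031). The list had 12 negative and 3 positive values and a median of -0.49, where 53.3% of all tested genes were negative and their median was -0.02. Sost, the osteocyte inhibitor of Wnt signalling, had -0.44 ± 0.29, and Tnfsf11, the osteoclast-forming ligand, had 0.30 ± 0.36 in the authors' deposited table. Tnfrsf11b, the decoy receptor for Tnfsf11, had -0.49 ± 0.41 in the authors' deposited table. None of these was called, and Sost, Tnfsf11 and Tnfrsf11b were named after their values were seen.

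Matrix genes that mark osteoblasts were split. Of 20 such genes 18 were tested, with 9 values of each sign, and 3 (16.7%) were called, all positive, beside 6.07% of all tested genes called positive and 12.2% called in all. In the authors' deposited table these were the collagen gene Col1a1 at 1.12 ± 0.32 and the osteocalcin genes Bglap2 at 1.10 ± 0.32 and Bglap at 1.08 ± 0.34. The pair of osteocalcin genes is so alike that reads can be split between them. Ibsp, a matrix protein of early mineral, had -0.53 ± 0.20 in the authors' deposited table and was not called (adjusted p = 0.066), and it was named after its value was seen. Other uncalled matrix genes whose 95% interval had ends of the same sign were Col1a2, Smpd3, Col11a2 and Postn. Col1a2 had 0.80 ± 0.31, Smpd3 0.97 ± 0.44, Col11a2 0.81 ± 0.37 and Postn -0.47 ± 0.22 in the authors' deposited table. They too were named after their values were seen. Runx2 and Sp7 had -0.04 ± 0.27 and 0.06 ± 0.60 in the authors' deposited table. Whether these differ from the matrix genes was not tested, since the table gives no covariance between genes.

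Over all tested genes, 12.2% were called, 25.7% had an unadjusted p under 0.05, and the median was -0.02. Of 12 osteocyte genes, which mark the cells that osteoblasts become within bone, none was called. Their median was -0.25, and 2 had an unadjusted p under 0.05. The smallest p-values were those of Pdpn, a membrane protein of young osteocyte processes, at -0.71 ± 0.28 (adjusted p = 0.074), and of Phex, a phosphate-regulating peptidase, at -0.56 ± 0.23 (adjusted p = 0.088), in the authors' deposited table. None of 14 tested cartilage genes was called either, at a median of 0.24, and 1 had an unadjusted p under 0.05. Sox6, a cartilage transcription factor also active in red cell precursors, had 0.43 ± 0.17 (adjusted p = 0.075), and Ihh, the hedgehog ligand that acts with Pthlh in growth cartilage, had -0.69 ± 0.57 (adjusted p = 0.470), in the authors' deposited table.

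Markers of skeletal muscle had the lowest median of the 10 lists. All 17 were negative, 4 (23.5%) were called, beside 6.11% of all tested genes called negative, and their values ran from -1.94 to -0.86 with a median of -1.33. The called genes were Neb at -1.94 ± 0.61, Atp2a1 at -1.81 ± 0.64, Myh1 at -1.62 ± 0.52 and Actn3 at -1.54 ± 0.55, all parts of the contractile or calcium apparatus, in the authors' deposited table. With no filter on low counts, Atp2a1 and Actn3 had adjusted p-values of 0.051 and 0.055 and were not called. Marrow stroma, a source of osteoblasts in adult marrow, had 1 positive and 3 negative calls among 12 genes (33.3%), at a median of -0.36, beside 6.07% positive and 6.11% negative calls over all tested genes. The negative calls were Foxc1, a transcription factor of niche cells, at -0.79 ± 0.18, the leptin receptor Lepr at -0.75 ± 0.26 and the chemokine Cxcl12 at -0.51 ± 0.13, and the positive one was Ebf1, also a B cell factor, at 0.70 ± 0.23, in the authors' deposited table. Their part in the values of the 4 genes was not tested.

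**Figure D3:**
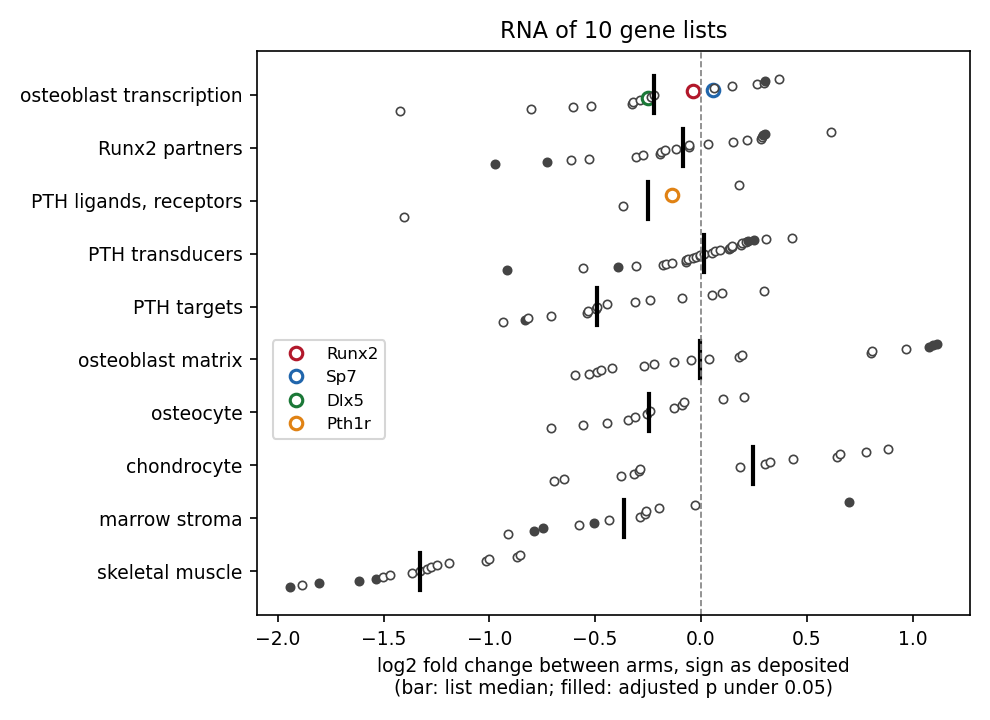
Log2 fold changes (horizontal axis, sign as deposited) of the tested genes in 10 lists, with a black bar at each list's median and filled points for genes with an adjusted p under 0.05. Runx2, Sp7, Dlx5 and Pth1r are coloured and open and lie between -0.25 and 0.06, while the muscle list lies wholly at or below -0.86.

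In the genome, Dlx5 lies beside Dlx6 and Sdhaf3, Sp7 between Aaas and Sp1, and Pth1r between Ccdc12 and Myl3, by the order of protein-coding genes in the RefSeq annotation of GRCm38.p6. Runx2 overlaps Supt3, a subunit of a transcription coactivator, on the opposite strand. Supt3 had -0.01 ± 0.17 in the authors' deposited table, so both genes of this pair had values near 0. Sp1, a general transcription factor of the same family as Sp7, was called, at 0.18 ± 0.07 in the authors' deposited table (adjusted p = 0.049). Myl3, a slow muscle and heart myosin light chain, had -1.09 ± 0.60 in the authors' deposited table and was not called (adjusted p = 0.236). Clic5, the next protein-coding gene on the lower-coordinate side of Runx2, had -0.96 ± 0.63 in the authors' deposited table and was not called (adjusted p = 0.344). Among these neighbours with an adjusted p, Sp1 was the single call, beside 12.2% of all tested genes called. In so few genes, 1 call is no result about the neighbours. With no filter on low counts the adjusted p of Sp1 was 0.059. The labels describe a stranded library kit, and whether counting used the strand is not given in the sources used here.

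Pth1r carried 1 of the most enriched m6A peaks of the whole table. The peak lay on chromosome 9 from 110722184 to 110722283, on the minus strand, as 1 block of 100 bases. Its enrichment of IP over input was 4.18-fold in the authors' deposited table, with a log10 p of -12.8 against input. Only 44 of 13083 peaks (0.336%) reached that value, itself included, and the median was 1.82 (quartiles 1.54 and 2.20) in the authors' deposited table. Peaks of at most 100 exonic bases had a lower median, 1.59 over 2471 peaks, and 2 of them reached the value of Pth1r, itself included.

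The Pth1r peak lay at the 3′ end of its gene. The submitters' processing notes name the rat build rn6, but 13000 of the 13026 peaks with a matched symbol (99.8%) fell within the like-named gene on mouse GRCm38.p6. On that annotation the peak ran from 198 to 99 bases before the last base of Pth1r. Of the peaks inside their gene, 8.18% lay within 500 bases of the 3′ end. Those 1064 peaks had a median enrichment of 1.84, and 2 of them, Pth1r included, reached 4.18. Exon and untranslated-region boundaries were not used here. Gm35775, a long non-coding RNA gene, overlaps Pth1r on the same strand and has no value in the RNA comparison. Whether it covers the peak, and its share in the reads given to Pth1r, was not tested.

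Runx2 had a weaker peak in the first part of its gene. It lay on chromosome 17 from 44736183 to 44736332, on the minus strand, as 1 block of 150 bases. Its enrichment was 1.56-fold in the authors' deposited table, with a log10 p of -6.44 against input, and it ranked 9493 from the top of the 13083 peaks. The peak was 78.5 kb from the 5′ end and 240.2 kb from the 3′ end of the gene, at 24.6% of its length. Supt3 overlaps Runx2 in the 5′ part of Runx2, and its own single peak lay outside Runx2.

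Neither Runx2 nor Pth1r had a called m6A difference between the arms, where a call is a difference p under 0.05. Such calls made up 4.92% of all peaks in the authors' deposited table, 3.6% with a positive and 1.32% with a negative sign. The Pth1r peak had a log2 difference of -0.37 (p = 0.165) and the Runx2 peak 0.36 (p = 0.451) in the authors' deposited table, and the FDR of each was 1. The signs were opposite. Both sizes were above the median absolute difference of 0.14 over all peaks, larger than 86.9% and 86.0% of them. The authors' deposited table gives no SE for these differences, so no interval can be set beside them.

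**Figure D4:**
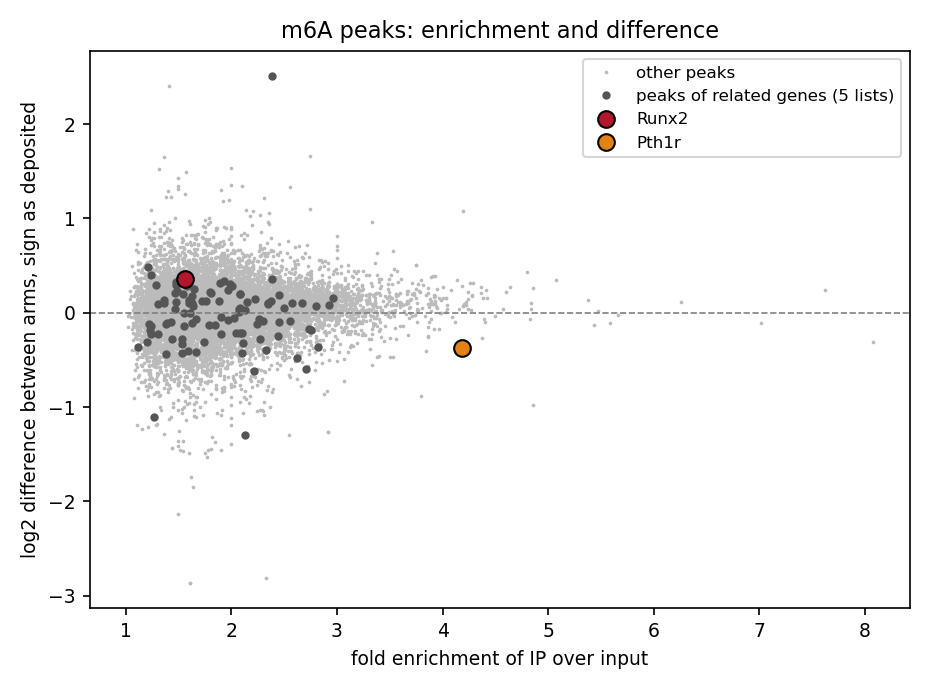
Log2 difference of m6A between arms (vertical axis, sign as deposited) against fold enrichment of IP over input (horizontal axis) for all 13083 peaks in light grey, peaks of related genes in dark grey, and Runx2 and Pth1r in colour. Pth1r stands to the right of every peak of the related genes, at 4.18 and -0.37, and Runx2 lies in the crowded part at 1.56 and 0.36.

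Sp7 and Dlx5 had no peak in the authors' deposited table. Whether a gene had one went with its mean count. With the tested genes cut into 10 classes of about 1540 genes by mean count, 2.34% of the lowest class had a peak and 73.7% of the highest. The share with a peak was 24.95% in the class of Dlx5 (131 to 286 counts) and 34.8% in that of Sp7 (286 to 516 counts). It was 54.1% in the class of Runx2 and 58.8% in that of Pth1r. Over all tested genes the share was 44.3%. A missing peak therefore does not show that the RNA of Sp7 or Dlx5 carries no m6A.

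Across the lists of osteoblast transcription, Runx2 partners and parathyroid hormone reception, signalling and response, there were 100 further peaks in 49 genes. None of these reached 3-fold, and the highest was 2.96 in Creb1, the cyclic AMP response factor, in the authors' deposited table. Atf4 had a peak at 2.93, Twist1 at 2.82 and Sox9 at up to 2.62 in the authors' deposited table. Of the 100 peaks, 69 stood above the Runx2 peak. The median of the osteoblast transcription list was 1.63 over 17 peaks, the Runx2 peak included. Dlx6, unlike its neighbour Dlx5, had a peak, at 1.12 in the authors' deposited table. Atf4, Twist1, Sox9, Creb1 and Dlx6 were named after their values were seen.

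Of the 100 peaks, 4 had a difference p under 0.05, beside 4.92% of all peaks. Of these, 2 lay in Mef2c, a transcription factor that carries parathyroid hormone signals to the Sost enhancer, with 0.22 and 0.29 in the authors' deposited table. The remaining pair were at 0.20 in Ep300, a histone acetyltransferase that binds Runx2, and at -1.10 in Runx3, the relative of Runx2, in the authors' deposited table. The FDRs were 0.93 and 0.26 in Mef2c, 0.93 in Ep300 and 0.84 in Runx3. None of these was under 0.05, and 3 of all 13083 peaks had an FDR under 0.05. Mef2c, Ep300 and Runx3 were named after their values were seen. None of the 17 peaks in the osteoblast transcription list was called.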

How the data were processed

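RNA and m6A of mouse bone were compared between 4 sham and 4 ovariectomy libraries each of input and IP. HISAT2, StringTie, DESeq and build rn6 appear in the submitters' processing notes, without versions or roles. Per the file headers, the authors deposited for each gene a mean normalized count (a signal, scaled by size factors), a log2 fold change with its SE, the Wald score, and raw and adjusted p-values. For each peak the authors deposited a p-value against input, log10 values of p and FDR, the enrichment as a ratio (fold), and the log2 difference between arms with its log10 p and FDR as a score. The peak caller and any pooling of replicates were not given in the sources used here. Recomputed Benjamini-Hochberg values matched the adjusted p-values of the authors' deposited table for all 15396 genes that have one, none with a mean under 12.4 counts. Library depths are not in the tables.

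The members and gene lists were chosen with earlier results of these data known. Genes were not tested anew, because the values at hand are not per library. For the same reason the planned count models, left-out libraries and replicate block could not be run. Planned counts per transcript length and motif searches in peaks were also not run, since no transcript lengths or genome were used here. Intervals are the deposited estimate ± 1.96 SE. By rule, the named genes were the 4 members and, from each list, up to 5 called genes by smallest p, or the 2 with the smallest p where none was called. Values of 1 list gene are not reported here, though it stays in the counts. Python 3.11.15, numpy 2.4.6, pandas 2.3.3, scipy 1.17.1 and matplotlib 3.10.9 were used. The Benjamini-Hochberg computation was checked against statsmodels 0.14.6, and the coefficient of variation on simulated counts. Those counts were fitted with their known dispersion, so the check covers the formula and not the estimation or smoothing of dispersions.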

Additional observations from a re-analysis of the deposited data

How the results depend on the processing

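None of the 4 genes was called in RNA (0 of 4) at adjusted p under 0.1 or 0.01, with no filter on low counts, with only genes of at least 50 mean counts, or with a t distribution of 6 degrees of freedom for the Wald statistic. The lowest adjusted p of any of the 4 under these was 0.599, for Dlx5. A cutoff of 0.01 and the t distribution could not have added a call, and with no filter each adjusted p rose. Centring on the median of tested genes turned no sign: Runx2 went from -0.04 to -0.02, and Sp7 from 0.06 to 0.08. Neither m6A peak was called for a difference at p under 0.01 or 0.1 or by FDR over all peaks. The cutoff of 0.01 and the FDR could not have added a call of a peak. Of the 2 peaks, 1 remained at an enrichment of at least 2, that of Pth1r, and 2 at 1.5. Of 158 tested list genes, 21 were called at adjusted p under 0.05 and 34 at adjusted p under 0.1. Over all tested genes 12.2% were called at 0.05, and the share at 0.1 was not computed here. With no filter on low counts, the calls among Runx2 partners went from 4 to 2, without Wwtr1 and Hdac5, and those among muscle genes from 4 to 2, without Atp2a1 and Actn3. No paired analysis was possible because the tables hold no values of single libraries, so no library could be left out either.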
